A study of Mus musculus with 9 samples.

Results

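Activated T cells switch on a set of genes whose products brake the MAP kinase signals that activated them. The 10 genes described here, Dusp1, Dusp2, Dusp4, Dusp5, Dusp6, Dusp10, Spry1, Spry2, Spred1 and Spred2, were chosen by symbol, as named MAP kinase phosphatases and Sprouty or Spred feedback genes. That choice was made with earlier results of these data known. Each symbol matched 1 Ensembl gene among the 53679 of the deposited count table. All 10 passed the filter on low counts that left 15348 genes to test.

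The cells were CD8+ T cells of C57BL/6 mice, and RNA was taken after 3 days of activation. There were 3 groups: untreated Tc0 cells, Tc0 cells with coenzyme A (CoA, the acyl carrier made from pantothenate, vitamin B5), and untreated Tc22 cells. By the field's usage, Tc0 cells are CD8+ T cells activated with no skewing cytokine added, and Tc22 cells are the CD8+ subset that makes interleukin-22. Each group held 3 libraries, 1 from each of mice 715, 725 and 728, so that every mouse gave all 3 populations. The labels give no age, no dose of CoA and no polarising agents for the Tc22 cells. Agent is labelled none for the untreated groups, while the protocol names a vehicle.

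Library totals ran from 21841034 to 36254631 counts. The Tc0 library from mouse 728 stood apart: set against its 2 replicates, the counts differed with chi-square values of 235 and 136 per degree of freedom, and the other 7 replicate pairs gave 24.1 to 67.3. Cd8a stood at 647 to 860 CPM (counts scaled to a common library size) and Cd3e at 53.4 to 129 CPM over the 9 libraries. The 12 CD8 T cell markers summed to 2580 to 3490 CPM in Tc0, 2180 to 2740 with CoA and 2610 to 3280 in Tc22 libraries. Dendritic cell markers summed to 6.48 to 10.7 CPM in Tc0, 19.2 to 26.4 with CoA and 18.9 to 24.7 in Tc22 libraries. Batf3 gave most of that sum in Tc22 cells, and the make-up of the sum with CoA is not given here. Of the 6 markers, which also include Flt3, Itgax and Zbtb46, 2 reached 1 CPM in some library. Siglech was at 0 in every library and Xcr1 at 0.606 CPM or less. Markers of CD4 and regulatory T cells summed to 13.5 to 22.6 CPM in Tc0, 27.3 to 31.6 with CoA and 21.9 to 30.1 in Tc22 libraries. Macrophage and monocyte markers summed to 4.97 to 8.29 CPM in Tc0, 5.54 to 15.3 with CoA and 6.76 to 8.63 in Tc22 libraries. Granulocyte and mast cell markers were higher with CoA, at 1.59 to 3.54 CPM, than in Tc0 (0.409 to 1.21) or Tc22 libraries (0.272 to 1.21). Of these 8 markers S100a9, Elane and Cebpe were at 0 in every library. The sums came from the rest, S100a8, Mpo, Cpa3, Mcpt8 and Fcer1a, and 2 markers reached 1 CPM in some library. Natural killer cell markers were higher in Tc22, at 4.48 to 5.74 CPM, than in Tc0 libraries (1.43 to 4.09), with 2.31 to 4.67 CPM with CoA. Erythroid markers summed to 0.409 to 0.56 CPM in Tc0, 0.289 to 0.444 with CoA and 0.68 to 0.799 in Tc22 libraries, and B cell markers to 9.1 to 11.9, 7.41 to 9.9 and 7.1 to 11.3 CPM. The part of other cell types in the differences below was not tested. In bulk RNA a lower value can come from fewer cells of a type or from less RNA per cell, and these cannot be told apart.

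The T cell receptor activates the small GTPase Ras, which acts through Raf and MEK kinases on the MAP kinases ERK1 and ERK2. Stress and costimulation act on the related kinases p38 and JNK. Dual-specificity phosphatases of the MAP kinase group (DUSPs) remove both activating phosphates from these kinases. DUSP1, DUSP2, DUSP4 and DUSP5 act in the nucleus, DUSP6 is the cytoplasmic phosphatase of ERK, and DUSP10 prefers p38 and JNK. Sprouty proteins interfere with signalling from receptors to Ras and Raf, and Spred proteins recruit neurofibromin, which switches Ras off. Many of these genes are themselves induced through ERK, so their transcripts form a negative feedback loop.

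Promoter sequences are shown for 3 phosphatase genes, picked by their values in these data. Dusp2 and Dusp5 were correlated over the 9 libraries, each taken against the mean of its mouse (Pearson r = 0.892). Dusp6 ran with neither (-0.231 and -0.556). In each comparison with Tc0, only 1 of Dusp2 and Dusp5 had an adjusted p under 0.05 by edgeR. The sequences come from RefSeq (GRCm38.p6) and run 5′ to 3′ on the strand of the gene, up to the base before the gene in GENCODE M21. Of the 10 genes, 9 had a RefSeq promoter entry; Dusp4 is named only. The windows are chr2:127335909-127336158 (plus strand) for Dusp2, chr19:53528895-53529108 (plus strand) for Dusp5 and chr10:99262981-99263230 (plus strand) for Dusp6. Capitals mark matches to the motifs described after the sequences. The Dusp5 stretch has 214 bases because its RefSeq start lies inside the GENCODE gene.

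Dusp2 promoter: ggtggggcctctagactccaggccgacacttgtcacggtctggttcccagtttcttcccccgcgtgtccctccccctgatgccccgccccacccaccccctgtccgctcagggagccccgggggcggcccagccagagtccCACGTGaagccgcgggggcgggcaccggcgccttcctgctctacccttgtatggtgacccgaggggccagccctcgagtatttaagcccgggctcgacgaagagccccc

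Dusp5 promoter: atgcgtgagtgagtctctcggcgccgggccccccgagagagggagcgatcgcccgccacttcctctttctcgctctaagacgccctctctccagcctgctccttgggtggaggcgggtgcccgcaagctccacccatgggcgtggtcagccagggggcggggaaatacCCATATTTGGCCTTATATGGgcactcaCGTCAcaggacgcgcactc

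Dusp6 promoter: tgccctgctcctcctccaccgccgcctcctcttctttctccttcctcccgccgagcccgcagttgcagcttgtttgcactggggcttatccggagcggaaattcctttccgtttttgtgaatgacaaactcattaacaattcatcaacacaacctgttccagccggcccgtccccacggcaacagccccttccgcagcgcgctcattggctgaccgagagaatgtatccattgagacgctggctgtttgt

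In the 250 bases before the RefSeq start, 9 motifs were searched on both strands. The CArG box, the core of the serum response element through which ERK induces genes, matched at 2 places in Dusp5, 82 and 72 bases before the start, as CCATATTTGG and CCTTATATGG side by side. It matched in 1.47% of 32841 mouse promoter windows of that length and in none of the other members with a window. The short cyclic AMP response motif TGACG matched in Dusp1, Dusp5 (on the other strand, 55 bases before the start) and Spred2, and in 17.8% of all windows. Its full form TGACGTCA, which contains the short one, matched in Dusp1 and in 1.55% of windows. The E-box CACGTG matched in Dusp1 and Dusp2 and in 6.02% of windows. The AP-1 motif TGANTCA (6.75% of windows), the ETS motif CCGGAAGT (2.88%), the EGR motif GCGTGGGCG (0.536%), the STAT motif TTCNNNGAA (7.02%) and the NFAT core TGGAAA (18.6%) matched in no member's window. Dusp6 held none of the 9 motifs. A match describes letters in a window and shows no binding.

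Compared per kilobase of exon, the members fell into a higher and a lower set. In Tc0 cells Dusp5 stood at 12.2 ± 1.02, Dusp2 at 11.7 ± 2.43, Dusp6 at 9.31 ± 0.296, Spred1 at 8.44 ± 2.16, Dusp4 at 7.62 ± 1.21 and Dusp10 at 6.90 ± 1.85 CPM per kb (mean ± SD, n = 3). Neighbours in this order overlapped between libraries, except that the lowest Dusp2 library (9.79) lay just above the highest Dusp6 library (9.65). Spred2 at 1.80 ± 0.116, Dusp1 at 1.70 ± 0.333 and Spry1 at 1.19 ± 0.164 CPM per kb came next, of which Spred2 and Dusp1 overlapped. Spry2 was lowest at 0.389 ± 0.0745 CPM per kb, with all its Tc0 libraries below those of Spry1. With CoA, Dusp6, already behind Dusp5 and Dusp2 in Tc0, also dropped behind Dusp4, Spred1 and Dusp10 in mean level, at 3.95 ± 0.666 CPM per kb.

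**Figure D1:**
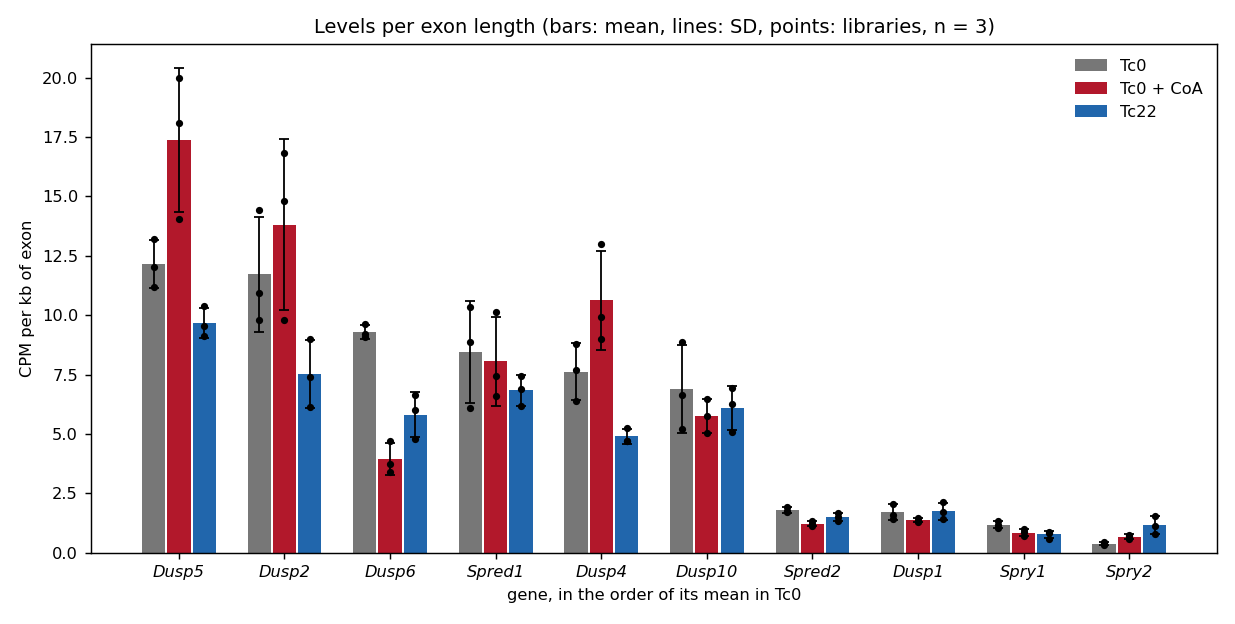
Levels per exon length, in CPM per kb on the vertical axis, of the 10 genes on the horizontal axis, in the order of their Tc0 means. Bars are means of 3 libraries, lines are SD and points are libraries; Dusp5 leads in every group, at 17.4 with CoA and 9.69 in Tc22 cells.

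CoA was given during activation, and Tc0 cells that had it were set against those that had not. Dusp6 fell 2.37-fold, Spred2 fell 1.48-fold and Dusp5 rose 1.42-fold. Those 3 of 10 members passed the threshold (adjusted p under 0.05 over all genes tested, edgeR), 1 higher and 2 lower. Over all genes 24.5% passed, 12.5% higher and 12.0% lower, so the share among the members was near that background. The groups did not overlap for 6 of 10 members, against 27.8% of all genes. The median log2 fold change of the members was -0.14, and that of all genes -0.0091.

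Dusp6 (ENSMUSG00000019960, GRCm38 chromosome 10, 99263231 to 99267489, plus strand) stood at 28.8, 30.2 and 28.5 CPM in the Tc0 libraries of mice 715, 725 and 728. With CoA it stood at 11.7, 10.7 and 14.7 CPM. The Tc0 libraries differed little and all lay above every library with CoA. On the log2 scale the difference was -1.24 (SE 0.16, edgeR adjusted p = 0.00199), and the value was lower in 3 of 3 mice. The call held under all 15 alternative fits, with log2 fold changes from -1.37 to -1.09 and adjusted p up to 0.0117.

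Dusp5, a nuclear phosphatase specific for ERK (ENSMUSG00000034765, chromosome 19, 53529109 to 53542431, plus strand), had 27.7, 29.8 and 32.7 CPM in Tc0 libraries. With CoA it had 34.7, 49.4 and 44.7 CPM, so each library with CoA lay above all Tc0 libraries. The rise was 0.51 on the log2 scale (SE 0.14, adjusted p = 0.0282). This call was lost without the Tc0 libraries of mouse 715 (adjusted p = 0.0751) or 725 (0.142), without the CoA libraries of mouse 725 (0.163) or 728 (0.127), and without the mouse block (0.0677).

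Dusp4 (chromosome 8, 34807297 to 34819894, plus strand), a nuclear phosphatase of ERK and JNK, had 24.1, 17.5 and 21.1 CPM in Tc0 libraries and 27.2, 35.6 and 24.7 CPM with CoA. The groups did not overlap, though the lowest CoA library and the highest Tc0 library lay close. At 0.48 on the log2 scale (SE 0.17), its adjusted p of 0.0661 missed the threshold. It passed by DESeq2 (0.0394) and without the CoA library of mouse 715 (0.0411). Without mouse 725's CoA library the difference shrank to 0.249 (adjusted p = 0.362), and without its Tc0 library to 0.29 (0.34). Dusp2, known as PAC-1 and strongly induced in activated lymphocytes (chromosome 2, 127336159 to 127338376, plus strand), had 19.6, 21.9 and 28.9 CPM without and 19.7, 33.7 and 29.7 CPM with CoA. Its groups overlapped, and mouse 725 alone showed a clear difference (log2 fold change 0.23, SE 0.15, adjusted p = 0.293).

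Dusp1 (chromosome 17, 26505590 to 26562128, minus strand) acts on p38, JNK and ERK. It had 4.72, 5.32 and 6.86 CPM in Tc0 libraries and 4.90, 4.45 and 4.31 CPM with CoA, with overlapping groups (-0.28, SE 0.19, adjusted p = 0.315). Its annotated span overlaps Ergic1 on the other strand, which had 50.5 to 105 CPM, and whether the counting used strand is not given, so reads of the pair may be mixed. Dusp10 (chromosome 1, 184013302 to 184075636, plus strand) had 15.8, 20.1 and 27.0 CPM without and 17.5, 15.4 and 19.7 CPM with CoA (-0.23, SE 0.15, adjusted p = 0.287). Both genes were lower with CoA in mice 725 and 728 and slightly higher in mouse 715.

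Spred2 (ENSMUSG00000045671, chromosome 11, 19924375 to 20024026, plus strand) had 8.18, 7.88 and 8.92 CPM in Tc0 libraries. With CoA it had 5.54, 5.17 and 6.13 CPM, below every Tc0 library. It fell by 0.57 on the log2 scale, SE 0.16, adjusted p = 0.0259. The change was near equal in the 3 mice (log2 ratios of -0.55, -0.60 and -0.54). The adjusted p passed 0.05 without the Tc0 library of mouse 715 (0.0532) or 725 (0.118), without the CoA library of mouse 715 (0.067), 725 (0.0998) or 728 (0.0946), with the compared groups alone (0.0599) and without the mouse block (0.0693).

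Its relative Spred1 (chromosome 2, 117121374 to 117182279, plus strand) had 70.3, 60.1 and 41.4 CPM without and 50.5, 68.9 and 44.7 CPM with CoA. The mice disagreed in direction (log2 fold change -0.055, SE 0.15, adjusted p = 0.82). Spry1 (chromosome 3, 37639947 to 37644598, plus strand) had 3.94, 2.98 and 3.44 CPM in Tc0 and 2.51, 2.93 and 1.997 CPM with CoA. Its groups did not overlap, but in mouse 725 the difference was small (-0.47, SE 0.24, adjusted p = 0.176). It was -0.749 without the CoA library of mouse 725 (adjusted p = 0.0865) and -0.292 without that of mouse 728 (0.536). Spry2 (ENSMUSG00000022114, chromosome 14, 105891947 to 105896819, minus strand) had 0.818, 0.653 and 0.964 CPM in Tc0 and 1.59, 1.19 and 1.47 CPM with CoA. All 3 CoA libraries lay above the Tc0 libraries (0.78 on the log2 scale, SE 0.30, adjusted p = 0.083). Spry2 rested on 14 to 42 counts per library here. It passed without the Tc0 library (0.0466) or the Tc22 library (0.0444) of mouse 728.

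**Figure D2:**
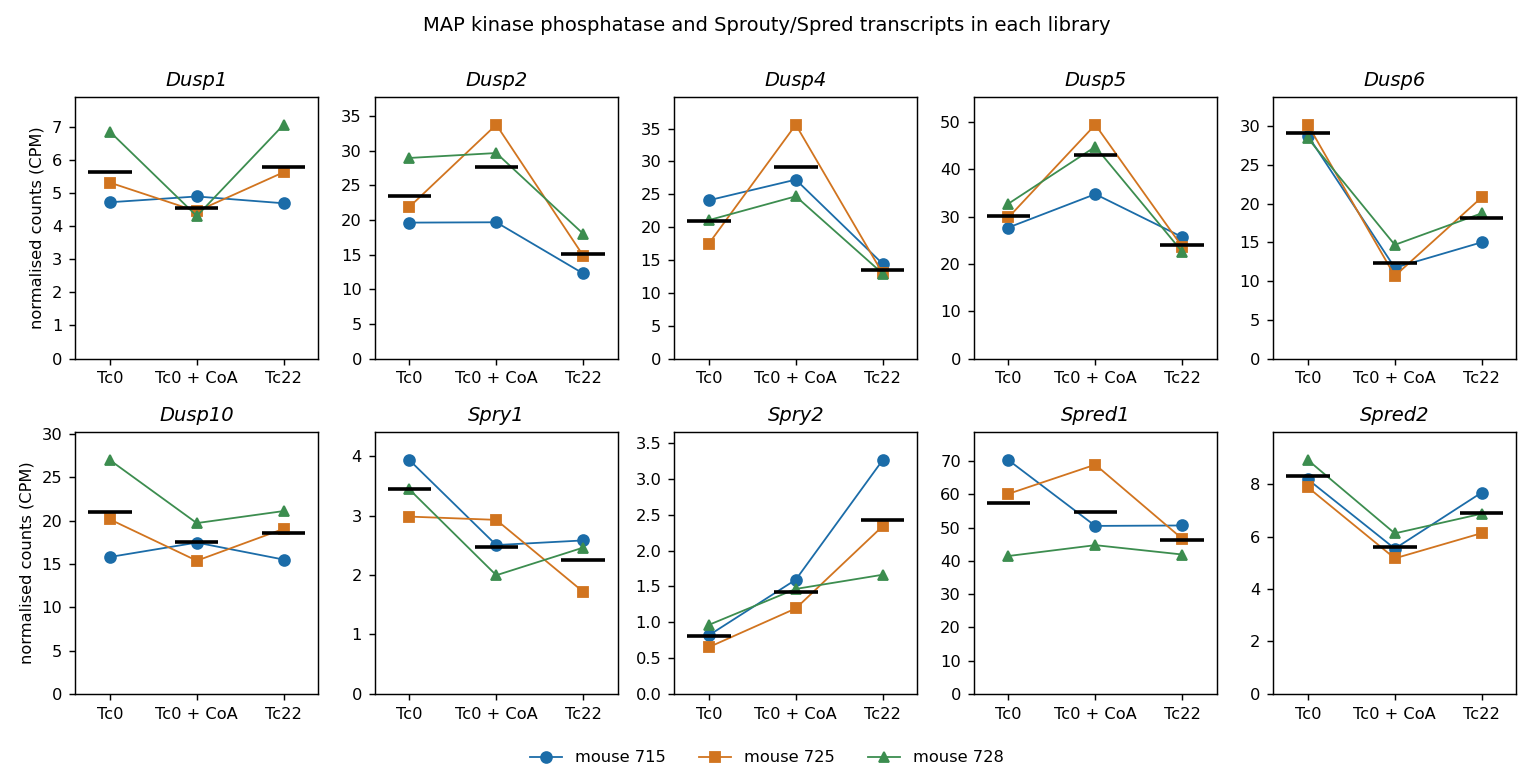
Level of each of the 10 genes in every library, in CPM on the vertical axis, for Tc0, Tc0 with CoA and Tc22 cells on the horizontal axis. Points and lines join the libraries of a mouse and black bars are group means (n = 3); Dusp6 dips with CoA in all 3 mice, while Dusp5 peaks there.

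Tc22 cells were compared with Tc0 cells to ask which members differed between these 2 populations. Spry2 rose, while Dusp6 and Dusp2 fell. These were 3 of 10 members, 1 higher and 2 lower, against 3.68% of all genes (2.48% higher and 1.21% lower). The groups did not overlap for 7 of 10 members, against 12.5% of all genes. The median log2 fold change of the members was -0.30, that of all genes -0.0084, and 8 of 10 members had a negative value. These members were chosen with earlier results of the same data known. Each of the 3 calls was lost in several of the alternatives, 5 of 15 for Spry2, 7 for Dusp6 and 10 for Dusp2.

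Spry2 had 3.26, 2.34 and 1.66 CPM in the Tc22 libraries, against 0.818, 0.653 and 0.964 CPM in Tc0. The lowest Tc22 library, of mouse 728, was still above the highest Tc0 library. Its level was 2.90-fold higher (1.54 on the log2 scale, SE 0.29, adjusted p = 0.018). By counts, 52 to 96 reads per Tc22 library stood behind these values. Leaving out Tc0 of mouse 715 (0.105) or 725 (0.093), or Tc22 of mouse 715 (0.105) or 725 (0.098), took its adjusted p past the threshold, and so did dropping the mouse block (0.0627).

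Dusp6 had 15.0, 20.8 and 18.8 CPM in Tc22 libraries, below the 28.5 to 30.2 CPM of Tc0. It fell by 0.69 on the log2 scale (SE 0.16, adjusted p = 0.0407). Leaving out Tc0 of mouse 715 (0.188) or 725 (0.182), CoA of mouse 728 (0.0602), or Tc22 of mouse 715 (0.26), 725 (0.0737) or 728 (0.0822) ended the call, as did dropping the mouse block (0.154).

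Dusp2 had 12.3, 14.9 and 18.0 CPM in Tc22 libraries, below all Tc0 libraries (19.6 to 28.9 CPM). The 3 mice gave log2 ratios of -0.67, -0.56 and -0.68, and the fit gave -0.65, SE 0.15, adjusted p = 0.045. Its adjusted p was 0.0514 with size factors by median of ratios, 0.0556 with library size alone and 0.415 without the mouse block. Leaving out the Tc0 library of mouse 715, 725 or 728 gave 0.201, 0.0677 and 0.0515, the Tc22 library of mouse 715, 725 or 728 gave 0.169, 0.247 and 0.0764, and the CoA library of mouse 728 gave 0.083.

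Dusp4 had 14.4, 13.0 and 12.9 CPM in Tc22 libraries and lay below every Tc0 library, like Dusp2. With -0.64, SE 0.17, its adjusted p of 0.078 missed the threshold. It passed by DESeq2 (0.0159), with no filter on low counts (0.016) and with CoA of mouse 725 left out (0.0271). Dusp5 had 25.7, 23.6 and 22.6 CPM, just below the Tc0 range of 27.7 to 32.7 CPM (-0.32, SE 0.14, adjusted p = 0.232). Dusp1 had 4.69, 5.63 and 7.07 CPM (0.040 on the log2 scale, SE 0.19, adjusted p = 0.918). Dusp10 had 15.5, 19.1 and 21.1 CPM (-0.16, SE 0.15, adjusted p = 0.555). Both followed the order of the mice that the Tc0 libraries showed.

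Spry1, Spred2 and Spred1 missed the threshold in Tc22 cells. Spry1 had 2.58, 1.72 and 2.46 CPM in Tc22 libraries, below the Tc0 range of 2.98 to 3.94 CPM, at -0.62 on the log2 scale (SE 0.23, adjusted p = 0.178). Spred2 had 7.68, 6.13 and 6.87 CPM (-0.27, SE 0.15, adjusted p = 0.328), and Spred1 50.6, 46.6 and 41.9 CPM (-0.28, SE 0.15, adjusted p = 0.308). Spry1 and Spry2, both Sprouty genes, thus stood on opposite sides of their Tc0 ranges in Tc22 cells, and only Spry2 passed.

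**Figure D3:**
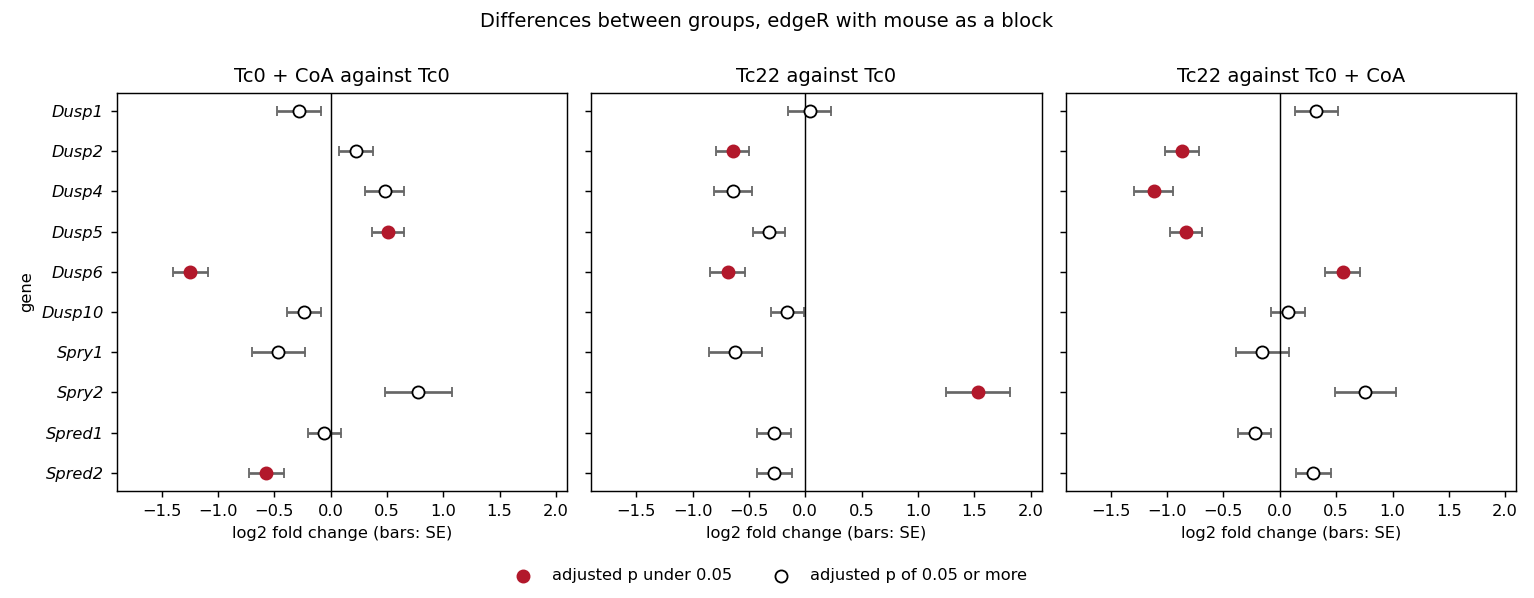
Log2 fold changes on the horizontal axis with SE bars for the 10 genes on the vertical axis, 1 panel per comparison; filled points have an adjusted p under 0.05. Dusp6 lies at -1.24 with CoA and -0.69 in Tc22 cells against Tc0, and at 0.56 in Tc22 against Tc0 with CoA.

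Tc22 cells against Tc0 cells with CoA is the direct test between those groups, since both comparisons above share the Tc0 libraries. Dusp2, Dusp4 and Dusp5 were lower in Tc22 than in Tc0 cells with CoA, and Dusp6 was higher. These 4 of 10 members, 1 higher and 3 lower, stood against 32.0% of all genes, 16.0% in each direction, near the background. The groups did not overlap for 6 of 10 members, against 41.9% of all genes. The median log2 fold change was -0.040 for the members and 0.011 for all genes.

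Dusp4 went from 24.7 to 35.6 CPM in the libraries with CoA to 12.9 to 14.4 CPM in Tc22 libraries. This difference of -1.12 on the log2 scale, SE 0.17, adjusted p = 0.00191, amounts to a 2.17-fold lower level. Dusp2 differed by -0.87, SE 0.15, adjusted p = 0.00289, and Dusp5 by -0.83, SE 0.14, adjusted p = 0.00294. In each of these 3 genes all 3 mice had the lower value in Tc22 cells and the groups did not overlap. Their calls held under all 15 alternative fits, with adjusted p up to 0.0412 for Dusp2, 0.018 for Dusp4 and 0.0273 for Dusp5. The 3 encode nuclear phosphatases, while Dusp1, the other nuclear one, stood at 0.32 on the log2 scale (SE 0.19, adjusted p = 0.227).

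Dusp6 stood at 10.7 to 14.7 CPM with CoA and at 15.0 to 20.8 CPM in Tc22 cells, which is 0.56 on the log2 scale (SE 0.16, adjusted p = 0.0237). The closest libraries of the groups, 14.7 CPM with CoA and 15.0 CPM in Tc22, came from mice 728 and 715. The call was lost without the libraries of mouse 725 with CoA (0.14) or of Tc22 (0.145), and without the mouse block (0.063). Over the 3 groups Dusp6 was highest in Tc0, intermediate in Tc22 and lowest with CoA, and each step passed in the fit with all libraries.

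Spry2 was higher in Tc22 cells than with CoA in 3 of 3 mice (0.76, SE 0.27, adjusted p = 0.0575), without passing. It passed with no filter on low counts (0.043), and with Tc0 (0.0443) or Tc22 (0.0192) of mouse 728 left out. Spred2 had 0.30, SE 0.16 (adjusted p = 0.174), Spred1 -0.22, SE 0.15 (0.28), Dusp10 0.074, SE 0.15 (0.738) and Spry1 -0.15, SE 0.24 (0.657).

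The members' patterns over the 9 libraries, each taken against the mean of its mouse on the log2 scale, fell into sets. Dusp2, Dusp4 and Dusp5 ran together, with Pearson r of 0.981 for Dusp2 and Dusp4, 0.934 for Dusp4 and Dusp5 and 0.892 for Dusp2 and Dusp5. Dusp6 and Spred2 ran together at 0.908, and Spry1 and Spry2 ran against each other at -0.806. Such values describe 9 libraries of 3 mice in 3 groups and carry mostly the group differences. Among 9251 genes of at least 5 CPM, those most like Dusp5 were Slc5a6, Stxbp4 and Smn1 (r from 0.989 to 0.996). Dusp4 was closest to Eif4enif1, Prdm15 and Fam220a (0.983 to 0.993), and Dusp2 to Dido1, Dusp4 and Skp2 (0.979 to 0.984). The genes most like Dusp6 were Ctnnbip1, Tubd1 and Prkar2b (0.990 to 0.992). Those for Spred2 were Gfi1, Atf7ip and Scd2 (0.964 to 0.974), and those for Spry2 Enkd1, Tnfrsf18 and Odf2 (0.977 to 0.986).

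Of 15 further Dusp, Spry and Spred genes, 13 were tested. With CoA 2 rose and 1 fell, against 24.5% of all genes called: Dusp18 rose from 0.193 to 0.661 CPM in Tc0 libraries to 3.64 to 5.32 CPM (3.70, SE 0.47, adjusted p = 0.00207), Dusp3 rose (1.21, SE 0.19, adjusted p = 0.00407) and Dusp22 fell (-0.53, SE 0.13, adjusted p = 0.0184). Dusp18 was under 1 CPM in all Tc0 libraries, so the size of its change rests on few reads there. Dusp18, Dusp3 and Dusp22 are small atypical phosphatases that lack the MAP kinase docking domain of the Dusp members. In Tc22 against Tc0 cells 1 passed, against 3.68% of all genes, Dusp3 (1.02, SE 0.19, adjusted p = 0.0192). Against Tc0 with CoA, where 32.0% of all genes passed, Spred3 (1.04, SE 0.24, adjusted p = 0.0095) and Dusp22 were higher in Tc22 cells and Dusp18 lower.

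The listed kinases and adaptors are those whose signals these proteins restrain. In the Ras to ERK list 1 of 26 rose and 6 fell with CoA, a share near the 24.5% of all genes called there (12.5% higher, 12.0% lower), with a list median of -0.079. Hras rose (0.87, SE 0.17, adjusted p = 0.00878), while Rasgrp1, the exchange factor that activates Ras in T cells, fell (-0.86, SE 0.17, adjusted p = 0.00874). In Tc22 against Tc0 cells 1 of 26 passed, against 3.68% of all genes, Rras (0.75, SE 0.17, adjusted p = 0.0377). Rras was among those that fell with CoA (-0.81, SE 0.17, adjusted p = 0.0108). Between Tc22 cells and Tc0 cells with CoA it stood at 1.56 (SE 0.17, adjusted p = 0.000512). In the p38 and JNK list 4 of 22 rose and 4 fell with CoA, against the same 12.5% and 12.0% of all genes. Gadd45g, an activator of that branch, rose (1.93, SE 0.28, adjusted p = 0.00277), and Map3k1 fell (-0.98, SE 0.22, adjusted p = 0.0123). The Gadd45 genes differed in direction: Gadd45b rose (0.85, SE 0.23, adjusted p = 0.0237) and Gadd45a fell (-0.74, SE 0.19, adjusted p = 0.022). In that list 2 of 22 passed in Tc22 against Tc0 cells (3.68% of all genes), Mapkapk2 (0.70, SE 0.12, adjusted p = 0.0107) and Mapk11, a p38 gene (0.73, SE 0.14, adjusted p = 0.0233). Between Tc22 cells and Tc0 cells with CoA, 16.0% of all genes were called in each direction. The Ras to ERK list then had 4 of 26 higher and 3 lower in Tc22 cells. In the p38 and JNK list 6 of 22 were higher and 7 lower.

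Among 26 other brakes on Ras and ERK signalling, 3 rose and 6 fell with CoA, where 12.5% of all genes were called higher and 12.0% lower. Rasal2, a Ras GTPase activator, rose (2.01, SE 0.27, adjusted p = 0.00237), and Cbl, a ubiquitin ligase of receptor signalling, fell (-0.54, SE 0.11, adjusted p = 0.00827). In Tc22 against Tc0 cells 1 rose, Rgs1 (1.08, SE 0.14, adjusted p = 0.00412), and 1 fell, Cblb (-0.82, SE 0.14, adjusted p = 0.0129), against 2.48% and 1.21% of all genes. Against Tc0 with CoA 7 were higher and 5 lower in Tc22 cells, against 16.0% of all genes in each direction.

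Transcripts known to be induced by ERK gave 28 tested genes. This list and those above were, like the members, chosen with earlier results of these data known. With CoA 9 of the 28 rose and 3 fell, against 12.5% and 12.0% of all genes. Their median was 0.45, against -0.0091 over all genes and -0.14 over the 10 members. The rises included Nr4a1 (1.74, SE 0.23, adjusted p = 0.00218) and Egr2 (1.64, SE 0.21, adjusted p = 0.00195), and the falls Zfp36 and Id3. In Tc22 against Tc0 cells 2 rose and 2 fell, against 2.48% and 1.21% of all genes, with a median of -0.13. Against Tc0 with CoA 5 were higher and 14 lower in Tc22 cells, against 16.0% of all genes in each direction, with a median of -0.66. The lower ones included Nr4a3 (-3.36, SE 0.21, adjusted p = 9.2e-05) and Egr3 (-2.51, SE 0.22, adjusted p = 0.000217). The higher ones included Ier3 (1.36), Id3 (1.01), Fosl2 (0.96) and Zfp36 (0.88). Both directions thus occurred in the list, as among the members, of which Dusp2, Dusp4 and Dusp5 were lower there and Dusp6 higher.

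**Figure D4:**
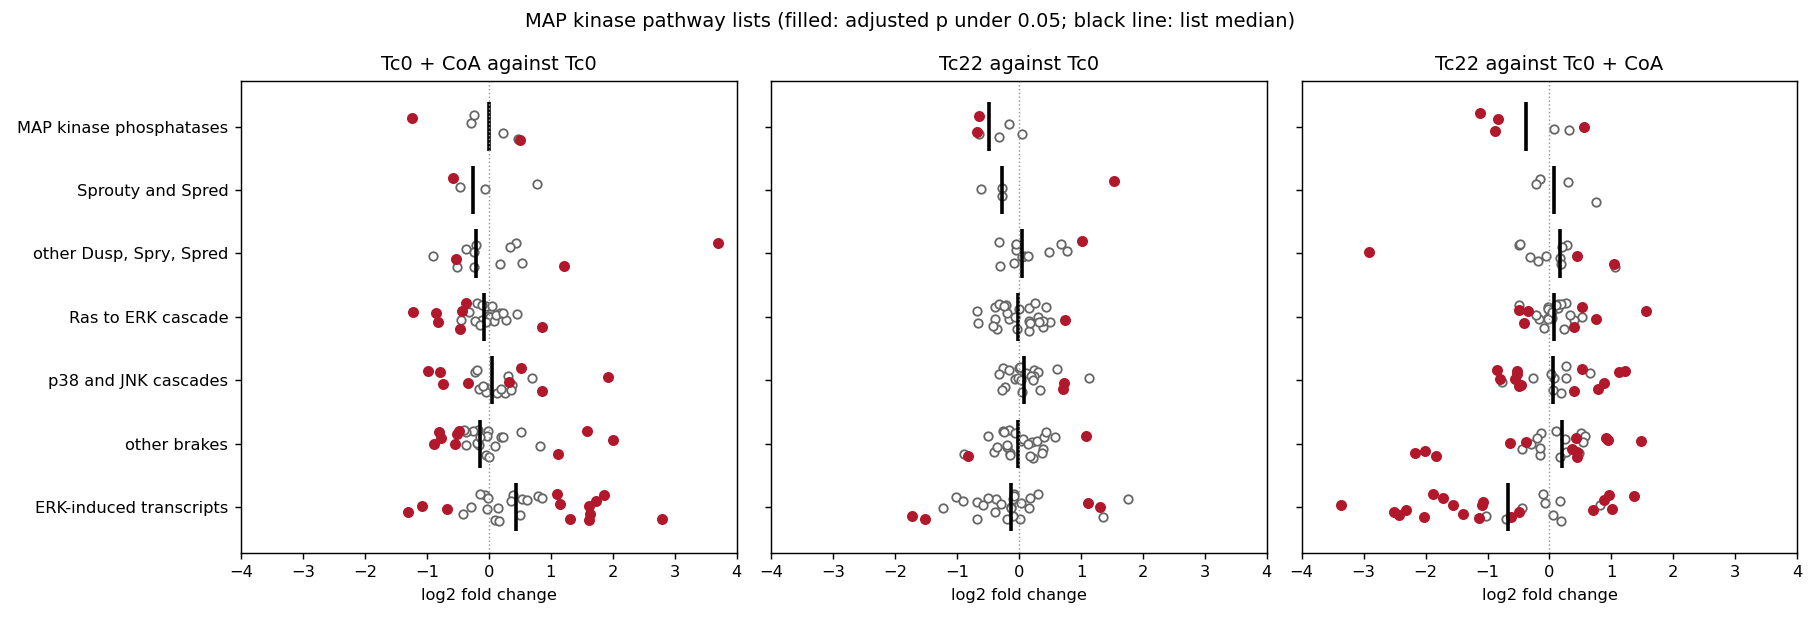
Log2 fold changes on the horizontal axis of the tested genes of the MAP kinase pathway lists on the vertical axis, 1 panel per comparison. Each point is a gene, filled where its adjusted p is under 0.05, and black lines are list medians; the ERK-induced list has its median at 0.45 with CoA and at -0.66 in Tc22 against Tc0 with CoA.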

How the data were processed

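Total RNA of 9 CD8+ T cell cultures was depleted of ribosomal RNA and sequenced as stranded libraries, per the labels' protocols. The authors deposited whole-number gene counts, 1 column per library, and the 9 single-library files held the same values. Upstream tools were STAR 2.5.2 and RSEM 1.3.0, with GRCm38 and mm10 as builds, per the submitters' processing notes, which give no roles here. The annotation, strand setting and any rounding: not given in the sources used here. Symbols, positions and exon lengths (union of exons) came from GENCODE M21 (GRCm38), matched by Ensembl ID; 53565 of 53679 IDs had a symbol.

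Counts were filtered with filterByExpr by group, scaled by TMM and fitted across all genes that passed the filter with edgeR 4.0.16 (quasi-likelihood F test, R 4.3.3). The model held group and mouse, over 9 libraries, which left 4 residual degrees of freedom. Benjamini-Hochberg adjustment covered 15348 genes (threshold 0.05). SE is the absolute log2 fold change over the square root of F. CPM use the TMM-scaled library sizes. Mouse was a block because, per the series' design text, each mouse supplied every population. Same-mouse libraries had deviations from their group means correlated at 0.0708 to 0.632 (9 pairs). Pairs of different mouse and group gave -0.544 to 0.235 (18 pairs), so the ranges overlapped. The fit was tested on simulated data for Tc0 with CoA against Tc0, with 100 planted log2 changes of size 1 and 100 of size 2. It recovered 75% and 99% of them. Beside these calls, 14 unchanged genes were called, among 15097 tested. The planted genes averaged at least 1 CPM and were a far smaller share of genes than the 24.5% called in the data. Smaller changes, the size of most member differences, were not planted. Separate cultures are not stated, so p-values measure the spread between these libraries.

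The members and lists were chosen with earlier results of these data known. All 10 members are given; other list genes were named by smallest p within a list (up to 4 per direction), and some that this takes were left out. Genes most like a member were ranked by Pearson r among genes of at least 5 CPM. Alternatives were other scalings, DESeq2 1.42.0, no low-count filter, no mouse block, the compared groups alone and each library left out.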

Additional observations from a re-analysis of the deposited data

How the results depend on the processing

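Every member's log2 fold change in 3 comparisons was recomputed under 15 alternatives each, 450 values in all. Of these, 395 kept their direction and side of the threshold, 37 lost the call, 10 gained it and 8 changed sign. The 8 sign changes came from leaving out 1 library, in values that missed the threshold. With CoA against Tc0, Spred1 ranged from -0.212 to 0.127 and was positive without Tc0 (0.103) or CoA (0.127) of mouse 715. For Tc22 against Tc0, Dusp1 ranged from -0.0549 to 0.145, negative without Tc0 of mouse 715 (-0.0284) or Tc22 of mouse 728 (-0.0549). Between Tc22 and CoA cells, Dusp10 ranged from -0.0235 to 0.237 and Spry1 from -0.33 to 0.128. Their signs changed without mouse 725's CoA library (-0.0235 and 0.128) or Tc22 library (-0.0025 and 0.0467).

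Without the mouse block, genes past the threshold numbered 1462 with CoA (3763 with the block), 120 for Tc22 against Tc0 (565) and 2097 between Tc22 and CoA cells (4913). Members without the block numbered 0 higher and 1 lower, 0 and 0, and 0 and 3 in the same order. For Tc22 against Tc0, DESeq2 gave 962 genes and no low-count filter 1275. DESeq2 gave 2 members higher with CoA, the compared groups alone 1 lower with CoA, both other scalings 1 lower in Tc22 against Tc0, and no low-count filter 2 higher between Tc22 and CoA cells. The cause was not tested.

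With 1 library left out, genes past the threshold ranged from 1160 to 4356 with CoA, from 201 to 2669 for Tc22 against Tc0 and from 2185 to 5913 between Tc22 and CoA cells. Counts moved by over 1.5 times with CoA when Tc0 of mouse 725 (1160) or CoA of mouse 725 (1325) or 728 (1485) was left out. For Tc22 against Tc0 they did so without Tc0 of mouse 715 (285), 725 (207) or 728 (2669) or Tc22 of mouse 715 (242) or 725 (201). Between Tc22 and CoA cells they did so without CoA of mouse 725 (2434) or 728 (2456) or Tc22 of mouse 715 (3251) or 725 (2185). Members higher ranged from 0 to 2, 0 to 1 and 0 to 2, and members lower from 1 to 2, 0 to 3 and 3 to 3. Depth limits Spry2 most among the members, at 14 to 96 counts per library.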
